A study of Mus musculus with 10 samples.

Results

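The 37 genes described here are the regulators NFE2L2 (NRF2) and KEAP1, the genes of glutathione synthesis, use and export, the thioredoxin and peroxiredoxin genes, the enzymes that make NADPH in the pentose phosphate pathway, and further enzymes linked to NRF2. They were picked by symbol from a table of 55487 genes, and all 37 symbols were found. The samples were CX3CR1+ myeloid cells sorted from the spinal cord of 5 male mice at the peak of experimental autoimmune encephalomyelitis (EAE), a mouse model of multiple sclerosis in which immunization with a myelin peptide leads to infiltration of the spinal cord by myeloid cells. All mice were C57BL/6 Arg1tm1Lky animals of 8 to 12 weeks, whose Arg1 gene carries a YFP reporter, and all had been immunized with MOG35–55 in complete Freund's adjuvant with pertussis toxin. Each mouse (m2, m6, m234, m235 and m236) gave 200000 YFP+ cells, called ARG1+, and 100000 YFP- cells, called ARG1-. Both fractions had passed the same gate for viable Ly6G- CD3- CD45+ CX3CR1+ cells, and this gate does not separate CNS-associated macrophages from cells derived from blood monocytes. In such bulk samples, fewer cells of a type and less RNA per cell cannot be told apart.

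NRF2 is a transcription factor that KEAP1 holds in the cytoplasm and marks for degradation. When electrophiles or oxidants modify KEAP1, NRF2 accumulates, pairs with a small MAF protein and binds antioxidant response elements near genes for the making and use of glutathione, for thioredoxin reduction and for NADPH supply. Glutathione is built from cystine taken up by xCT (Slc7a11) by glutamate-cysteine ligase (Gclc and Gclm) and glutathione synthetase (Gss), is spent by peroxidases, transferases and glutaredoxin, and is restored by glutathione reductase (Gsr) at the expense of NADPH. NRF2 is regulated mainly at the protein level, which these libraries do not measure. Myeloid cells in inflamed tissue make oxidants with NADPH oxidase, and these enzymes limit the damage.

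The promoters of the members were searched for the antioxidant response element. RefSeq promoter windows of GRCm38.p6, from 250 bases before to 50 bases after a start site, were found for 33 of the 37 genes. For these genes there were 43 windows. Of these, 5 windows (11.6%), each of another gene, held the string TGANTCAGC on either strand, which combines an AP-1-type TGANTCA with the GC of the antioxidant response element, against 1.19% of all 32851 windows. The genes were listed for their link to NRF2, so that this share describes the list. Of these 5, the window of Me1 is not printed, and the other 4 are given below on the strand of the gene, 5′ to 3′, with the match in capitals. They are shown because they hold the clearest match among the measured members.
Prdx1: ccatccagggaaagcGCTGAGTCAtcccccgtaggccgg
Srxn1: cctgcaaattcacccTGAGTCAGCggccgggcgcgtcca
Gstp1: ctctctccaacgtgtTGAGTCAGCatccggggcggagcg
Osgin1: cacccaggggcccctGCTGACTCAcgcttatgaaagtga

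The stretches lie at chr4:116685451-116685489, + strand, for Prdx1, chr2:152105464-152105502, + strand, for Srxn1, chr19:4037963-4038001, - strand, for Gstp1 and chr8:119437033-119437071, + strand, for Osgin1, upstream of the RefSeq start that defines each window. By the gene bounds of the deposited table, the Osgin1 stretch lies inside the gene and the Gstp1 stretch overlaps its end coordinate. In Prdx1 and Osgin1 the match is on the other strand and reads TGACTCAGC and TGAGTCAGC there. None of these 4 genes passed the test between ARG1+ and ARG1- cells without a term for the animal. With such a term, Prdx1 was higher in ARG1+ cells, and Srxn1, Gstp1 and Osgin1 did not pass. The values of each are given below. The less specific core TGACNNNGC, which TGACTCAGC also matches, was found on either strand in 10 of the 43 windows (23.3%), each of another gene. It was in 12.4% of all windows. The other core searched, TGAGNNNGC, which TGAGTCAGC matches, was in 6 of the 43 windows (14.0%), against 17.6% of all windows. TGANTCA was in 8 (18.6%), against 7.81%. Among the 8 members that were higher in ARG1+ cells, TGACNNNGC was found in the window of Mgst1 and TGANTCA in that of Mgst2, and Abcc1 had no RefSeq window. The windows of Mgst1 and of Gclm are shown for comparison with those above.
Mgst1: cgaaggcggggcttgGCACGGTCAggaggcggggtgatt
Gclm: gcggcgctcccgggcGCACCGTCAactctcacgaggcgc

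These lie at chr6:138140456-138140494, + strand, and at chr3:122245408-122245446, + strand, and the Mgst1 stretch lies inside the gene bounds of the deposited table. Both matches are on the other strand, as TGACCGTGC and TGACGGTGC. A match to these letters is a description of the sequence and does not show that a factor binds there.

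Libraries of 28870482 to 33826355 counts were obtained from ARG1+ cells. The ARG1- library of m234 held 8396863 counts and the other ARG1- libraries 28212174 to 35455643. Arg1, the gene behind the sort, was 43.8-fold higher in ARG1+ cells (FDR 1.07e-07), and its lowest ARG1+ library had 588 CPM against at most 27.0 CPM in ARG1- libraries. Expression is given as CPM, counts per 1e6 counts of a library, with library sizes adjusted by the trimmed mean of M values (TMM), and values per library are always in the order m2, m6, m234, m235 and m236. Means are ± SD (n = 5), log2 fold changes are ARG1+ over ARG1- cells, and a gene was called higher or lower at a false discovery rate (FDR) below 0.05 in edgeR's quasi-likelihood test over 13740 genes.

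In the test without a term for the animal, ARG1+ cells had higher levels of several glutathione-using enzymes. The 2 regulators and the 4 tested members of the pentose phosphate pathway did not pass it in either direction. With the animal as a replicate block, 4 of the 5 glutathione synthesis and recycling genes and 1 pentose phosphate gene were also higher. Of the 37 members, 35 were expressed above the filter (CPM above 1 in at least 3 libraries). Without the block, 8 of the 35 (22.9%) were higher in ARG1+ cells, which compares with 6.82% of all genes tested. The members and lists were chosen with earlier results of these data known, so that this share and those below describe the lists. The 8 were the transferases Gstm1, Mgst1, Mgst2 and Gsto1, the exporter Abcc1, the peroxidase Gpx4, catalase (Cat) and the aldo-keto reductase Akr1b8. No member was lower at this threshold, against 6.15% of all genes, although 1 member was lower at an unadjusted p below 0.05 and 1 with DESeq2. DESeq2, an alternative fit, made more false calls on simulated counts than the other fits (44 against 10 to 14). Over all 13740 genes it called 1276 higher and 1307 lower. Without both libraries of animal m2 or of m6, 4 members were higher. Mgst2 and Akr1b8 also passed a log2 fold change of 1, which 0.560% of all genes did in this direction. Akr1b8 entered the test through its ARG1+ libraries alone and had to be higher there, and it is counted in the shares of this paragraph. With CPM above 1 in at least 5 libraries it was not tested, and 1 member passed both limits. The groups did not overlap for 7 members, 6 of them higher in ARG1+ cells (6.15% of all genes) and 1 lower (5.20%). The median log2 fold change of the 35 genes was 0.17 against -0.0022 over all genes.

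**Figure D1:**
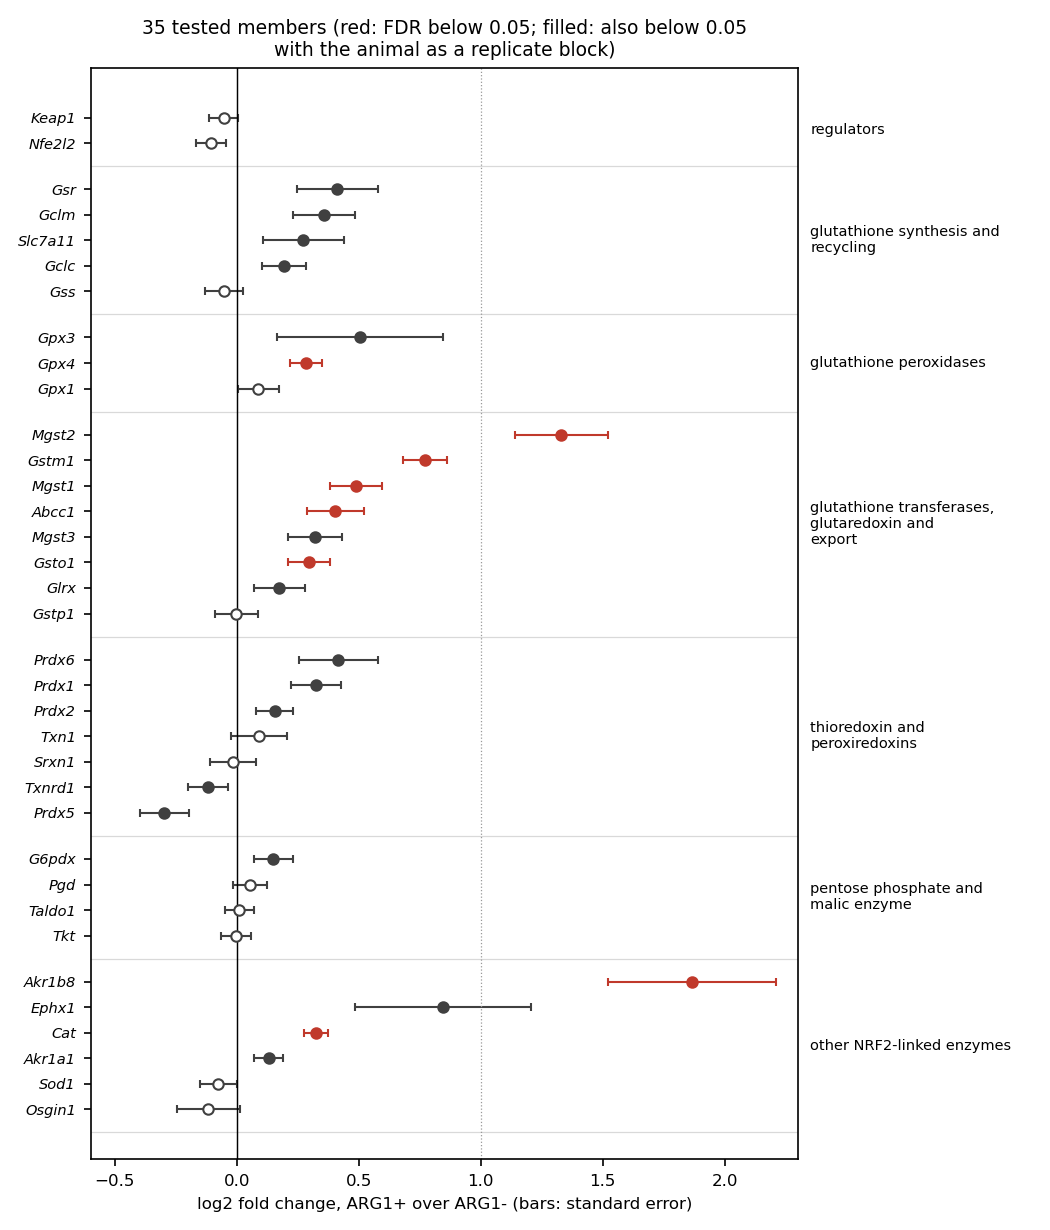
Log2 fold change (ARG1+ over ARG1- cells) with its standard error for the 35 tested members, by role, with 5 libraries a group. Red points passed an FDR of 0.05, filled points passed it with the animal as a replicate block, and the dotted line marks a log2 fold change of 1, which only Mgst2 and Akr1b8 passed at that FDR.

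The levels of many members also differed between animals. With the animal as a replicate block, 21 members (60%) were higher and 2, Prdx5 and Txnrd1, were lower, against 16.8% and 18.3% of all genes. The ARG1+ library was above the ARG1- library of its own animal in 5 of 5 animals for 21 of the 35 members (60%), against 20% of all genes, and below it in 5 of 5 for 2 members (5.71%), against 21.0%. Some animals were high or low in both fractions. For m235 the ARG1+ library was the highest of its group for 15 members and the ARG1- library for 16, and for m234 the ARG1+ library was the lowest for 16 members and the ARG1- library for 22. The ARG1- library of m234 is also the one with the fewest counts, and the part of its depth in these levels was not tested.

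**Figure D2:**
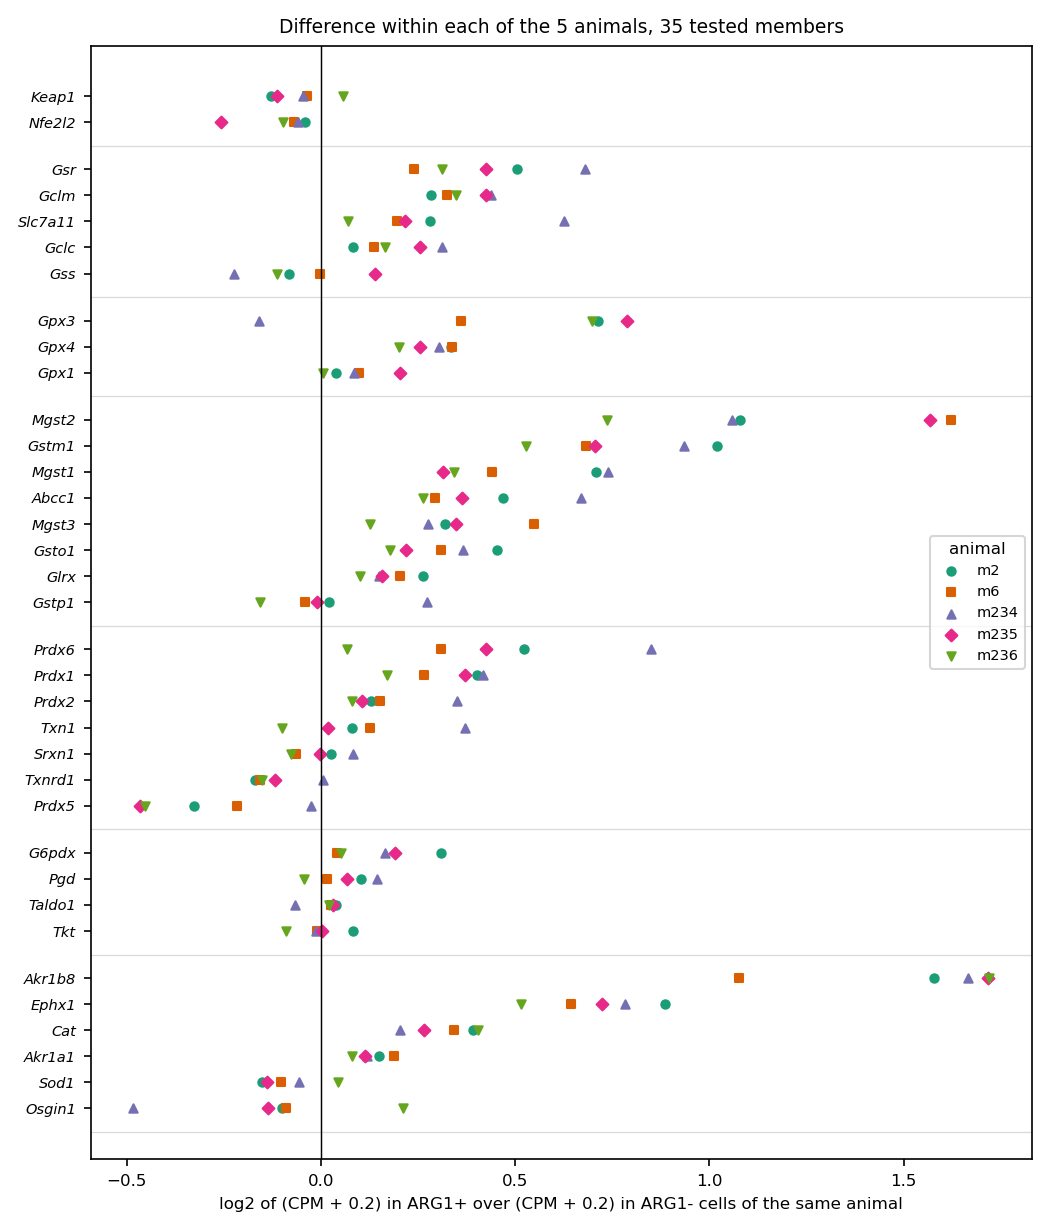
Difference between the ARG1+ and the ARG1- library of the same animal for the 35 tested members, as log2 of the ratio of CPM with 0.2 added, with 1 symbol per animal. For 21 members all 5 animals lie to the right of 0, and for Nfe2l2 and Prdx5 all 5 lie to the left.

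Neither of the 2 regulators passed the test. Nfe2l2 (ENSMUSG00000015839, chr2:75675513-75704641, - strand) had 487, 536, 558, 495 and 528 CPM in the ARG1+ libraries and 502, 563, 581, 591 and 566 CPM in the ARG1- libraries. In all 5 animals the ARG1+ value was the lower one, by a small amount, and the groups overlapped (log2 fold change -0.11 ± 0.0627 (SE), FDR 0.281, and 0.0714 with the block). Keap1 (ENSMUSG00000003308, chr9:21229730-21239361, - strand) had 41.3, 44.3, 44.6, 44.7 and 41.7 CPM in the ARG1+ libraries and 45.2, 45.4, 46.1, 48.3 and 40.1 CPM in the ARG1- libraries. The ranges overlapped (log2 fold change -0.055 ± 0.0578 (SE), FDR 0.560). No regulator was called at an unadjusted p below 0.05 or with DESeq2. Keap1 shares 11.3% of its exon bases with Gm16754 on the other strand, and the sources used here do not say whether counting used strand.

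Glutathione synthesis and recycling held no call without the block, and its 5 members were tested. Slc7a11, the cystine-glutamate exchanger, was the most abundant of them in CPM (ENSMUSG00000027737, chr3:49892526-50443614, - strand), with 618, 537, 550.2, 728 and 415 CPM in the ARG1+ libraries and 509, 468, 356, 626 and 396 CPM in the ARG1- libraries. ARG1+ cells had more in each animal, from 0.068 log2 units in m236 to 0.63 in m234, and the groups overlapped. The log2 fold change was 0.27 ± 0.164 (SE), FDR 0.288, and 0.0109 with the animal as a block. Gclc, the catalytic subunit of glutamate-cysteine ligase, was at 125 ± 14.8 against 109.8 ± 11.2 CPM (log2 fold change 0.19 ± 0.0902 (SE), FDR 0.175, block FDR 0.00569). For Gclm, the modifier subunit of the same enzyme (ENSMUSG00000028124, chr3:122245557-122270732, + strand), there were 40.8, 50.8, 40.7, 60.6 and 49.4 CPM in the ARG1+ libraries and 33.5, 40.5, 30.0, 45.1 and 38.8 CPM in the ARG1- libraries. Every animal had more Gclm in its ARG1+ cells, by a narrow span of 0.28 to 0.44 log2 units, and the call depended on the fit: the FDR was 0.0838 without and 1.34e-04 with the block, and 0.0459 with DESeq2.

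Gss, which joins glycine to complete glutathione (ENSMUSG00000027610, chr2:155563181-155592810, - strand), had a log2 fold change near 0. There were 9.07, 8.84, 8.24, 9.55 and 8.17 CPM in the ARG1+ libraries and 9.62, 8.86, 9.65, 8.66 and 8.84 CPM in the ARG1- libraries, and the log2 fold change was -0.053 ± 0.0791 (SE), FDR 0.694, with the ARG1+ library higher in 1 of 5 animals. Gsr, which reduces oxidized glutathione with NADPH (ENSMUSG00000031584, chr8:33652523-33698163, + strand), had 192, 194, 158, 259.8 and 194 CPM in the ARG1+ libraries and 135, 164, 98.4, 193 and 156 CPM in the ARG1- libraries. The ARG1+ library was the higher one in each animal and m235 was high in both fractions, so that the groups overlapped although the mean was 1.33-fold higher. Its log2 fold change was 0.41 ± 0.165 (SE), FDR 0.118 without the block and the FDR was 3.89e-04 with it. With the block, 4 of the 5 genes of this group were higher (Slc7a11, Gclc, Gclm and Gsr) and Gss was not (FDR 0.674). The share was 80.0%, against 16.8% of all genes. At an unadjusted p below 0.05, 2 of the 5 were higher, with DESeq2 1 and with limma-trend 0.

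**Figure D3:**
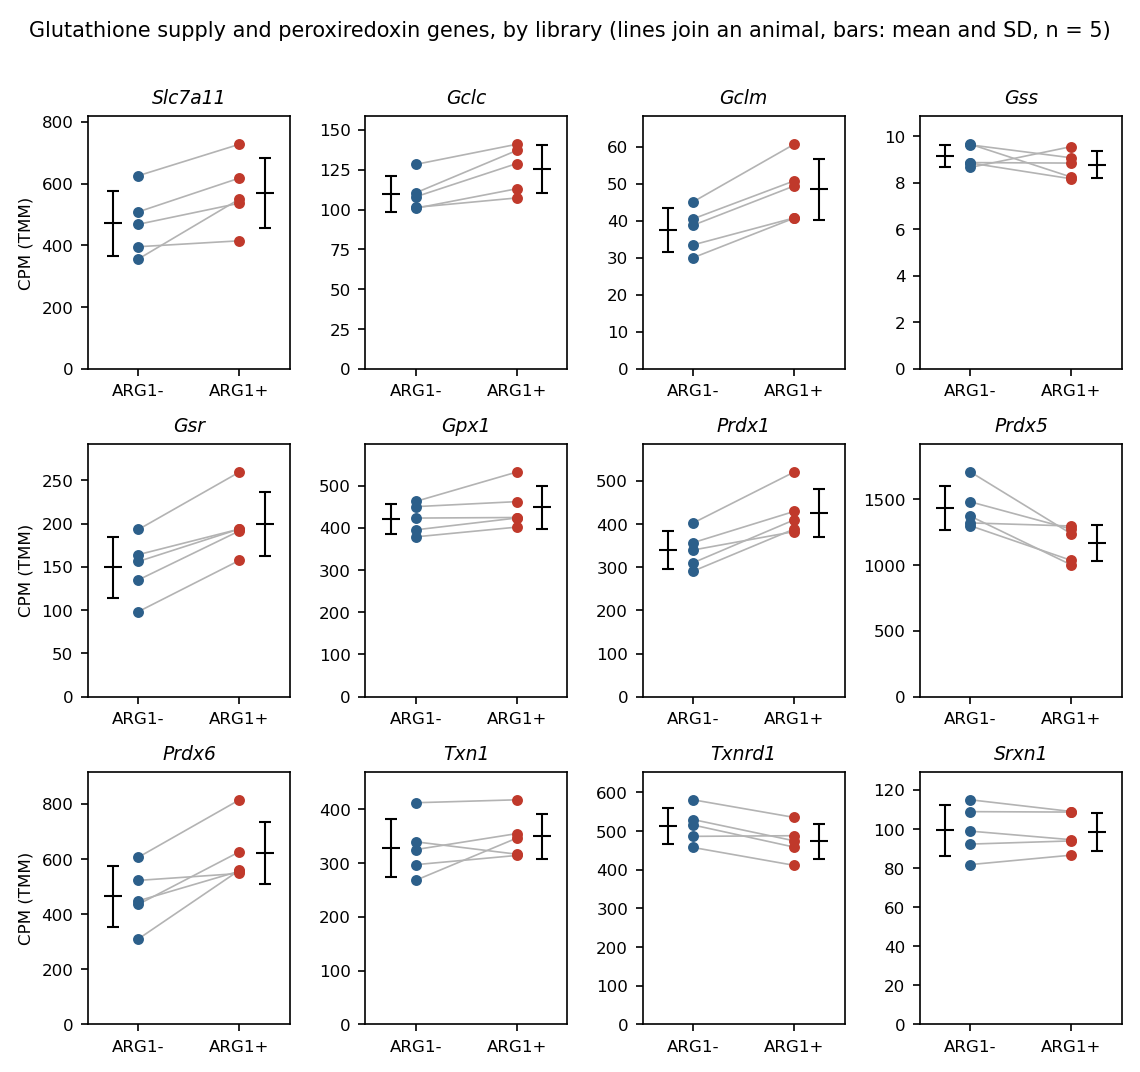
CPM in each library for 12 genes of glutathione supply and reduction and of the thioredoxin and peroxiredoxin group, with grey lines joining the 2 fractions of an animal and bars for the mean and SD (n = 5). Slc7a11, Gclc, Gclm, Gsr, Gpx1, Prdx1 and Prdx6 slope up in each of the 5 animals and Prdx5 slopes down in each. Gss, Txn1, Txnrd1 and Srxn1 have slopes of both signs.

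Of the 3 glutathione peroxidases, Gpx4 was higher in ARG1+ cells. Gpx4, which reduces lipid hydroperoxides in membranes (ENSMUSG00000075706, chr10:80047166-80056439, + strand), had 101, 104, 92.0, 106 and 105 CPM in the ARG1+ libraries and 79.6, 82.2, 74.5, 88.9 and 91.5 CPM in the ARG1- libraries. The lowest ARG1+ library lay just above the highest ARG1- library, so that the groups did not overlap, as in 11.3% of all genes. The fold was 1.22 (log2 fold change 0.28 ± 0.0645 (SE), FDR 0.0154), and the FDR was 0.0815 without animal m2 and 0.0887 without m6. A near-identical processed copy, Gpx4-ps2, holds the largest share of the 34.7% of 50-base stretches of the Gpx4 exons that recur in other genes, and it was itself counted at 91.6 ± 4.37 against 71.7 ± 9.57 CPM (log2 fold change 0.35 ± 0.0826 (SE), FDR 0.0183), and the split of reads between the pair is uncertain. Gpx1, the abundant cytosolic peroxidase (ENSMUSG00000063856, chr9:108338903-108340343, + strand), had 463, 424, 402, 533 and 425 CPM in the ARG1+ libraries and 451, 396, 379, 463 and 424 CPM in the ARG1- libraries. It was above its ARG1- partner in each animal by 0.0046 to 0.20 log2 units (log2 fold change 0.088 ± 0.0854 (SE), FDR 0.522, block FDR 0.114). Gpx3, the secreted form, was at 19.2 ± 9.40 against 13.7 ± 5.78 CPM with m236 the highest of both groups (log2 fold change 0.50 ± 0.341 (SE), FDR 0.346, block FDR 0.00819).

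The transferases and the exporter held most of the calls, with 5 of 8 members higher (62.5%, against 6.82% of all genes). Gstm1, a cytosolic transferase that couples glutathione to electrophiles (ENSMUSG00000058135, chr3:108012255-108017973, - strand), had 49.7, 39.8, 44.1, 48.8 and 40.7 CPM in the ARG1+ libraries and 24.4, 24.8, 23.0, 29.9 and 28.2 CPM in the ARG1- libraries. All ARG1+ libraries were above all ARG1- libraries, 1.71-fold on average (log2 fold change 0.77 ± 0.0888 (SE), FDR 4.05e-04). Part of its exons (18.9% of 50-base stretches) recurs in other genes, with the largest share in Gstm2-ps1, which was counted at 7.86 ± 1.51 against 4.74 ± 1.12 CPM (log2 fold change 0.69 ± 0.173 (SE), FDR 0.0233), with the same uncertainty. Mgst1, a membrane-bound transferase with peroxidase activity (ENSMUSG00000008540, chr6:138140316-138156755, + strand), had 167, 177, 163, 183 and 174 CPM in the ARG1+ libraries and 102, 130.3, 97.3, 147 and 138 CPM in the ARG1- libraries. The 2 groups did not overlap, and the SD was 22.0 CPM over ARG1- and 7.96 CPM over ARG1+ libraries (log2 fold change 0.49 ± 0.106 (SE), FDR 0.0122). Without animal m2 its FDR was 0.0546, and without m6 it was 0.0600.

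Mgst2, a related membrane enzyme that can also make leukotriene C4, had the largest fold of the glutathione genes (ENSMUSG00000074604, chr3:51660360-51682677, + strand). It had 2.95, 3.92, 2.42, 2.94 and 2.58 CPM in the ARG1+ libraries and 1.29, 1.14, 1.06, 0.859 and 1.47 CPM in the ARG1- libraries, which is 2.51-fold more in ARG1+ cells with no overlap (log2 fold change 1.33 ± 0.191 (SE), FDR 0.00139). These levels are low, and the 5 ARG1+ libraries together held 457 Mgst2 counts and the 5 ARG1- libraries 159. The third family member on the list, Mgst3, was at 10.1 ± 1.15 against 8.04 ± 1.04 CPM and did not pass the test (log2 fold change 0.32 ± 0.111 (SE), FDR 0.0788, block FDR 0.0116). Gsto1, an omega-class transferase with glutaredoxin-like activity (ENSMUSG00000025068, chr19:47854970-47864790, + strand), had 97.3, 105, 87.6, 93.2 and 105 CPM in the ARG1+ libraries and 71.1, 84.9, 67.9, 80.1 and 92.9 CPM in the ARG1- libraries. The groups overlapped through the ARG1- library of m236 (log2 fold change 0.30 ± 0.0870 (SE), FDR 0.0440). Abcc1, which exports glutathione and its conjugates (ENSMUSG00000023088, chr16:14361558-14475737, + strand), had 160.5, 131, 126, 153 and 116 CPM in the ARG1+ libraries and 116, 107, 79.3, 119 and 96.7 CPM in the ARG1- libraries, with overlap through the ARG1+ library of m236 (log2 fold change 0.40 ± 0.117 (SE), FDR 0.0418).

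Both Gsto1 and Abcc1 lay close to the threshold. Gsto1 had an FDR from 0.0552 to 0.172 in 11 of 15 fits that left out a library or an animal, and Abcc1 from 0.0502 to 0.119 in 12 of 15. The fits that kept Gsto1 lacked the ARG1+ library of m234, the ARG1- library of m236, or both libraries of m234 or of m236. For Abcc1 the fits that kept the call lacked the ARG1+ library of m234 or m236 or the ARG1- library of m235. With the block their FDRs were 6.72e-04 and 4.13e-04, and both were above their ARG1- partner in 5 of 5 animals. Glrx, which removes glutathione from protein thiols (ENSMUSG00000021591, chr13:75839868-75850154, + strand) and was the most abundant gene of this group, had 182, 182, 164, 229 and 175 CPM in the ARG1+ libraries and 152, 158, 148, 205 and 163 CPM in the ARG1- libraries. Its groups overlapped and m235 stood out in both (log2 fold change 0.17 ± 0.104 (SE), FDR 0.290, block FDR 0.00419). Gstp1 (ENSMUSG00000060803, chr19:4035407-4037985, - strand), whose promoter stretch is printed above, was at 27.7 ± 2.02 against 27.5 ± 3.55 CPM, and its log2 fold change of -0.0018 ± 0.0890 had an FDR of 0.994. Its neighbour Gstp2 holds the largest share of its 33.7% of recurring 50-base stretches and was at 8.93 ± 0.504 against 8.84 ± 1.68 CPM.

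**Figure D4:**
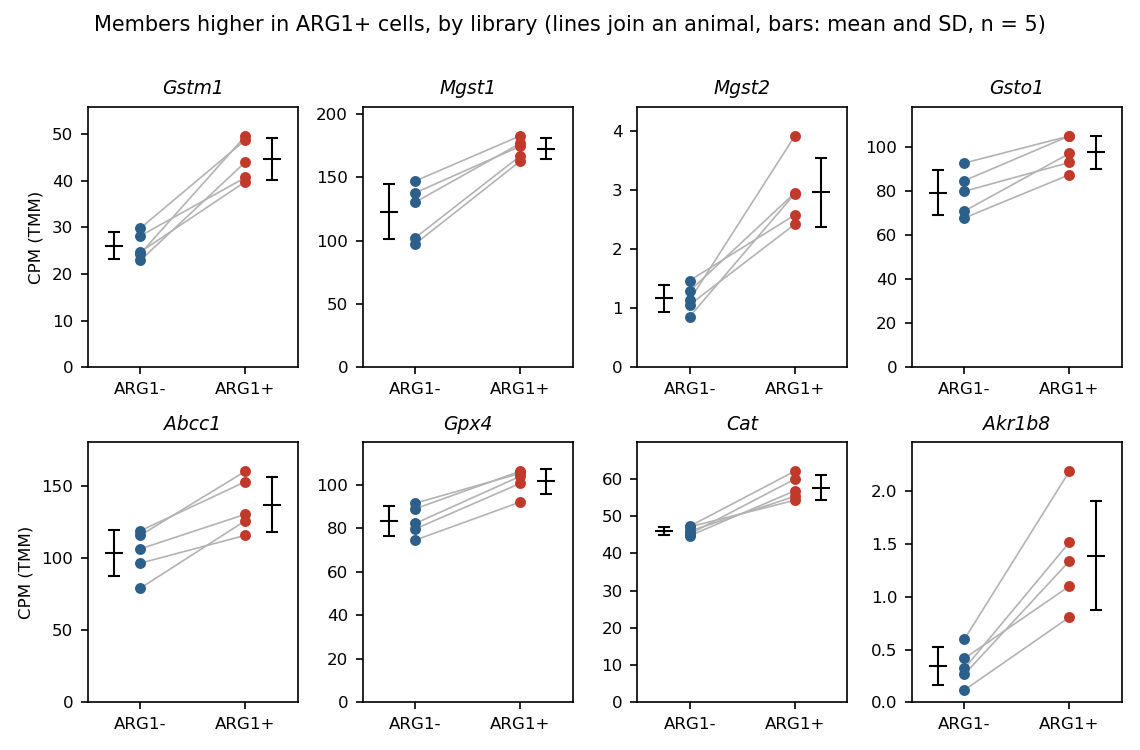
CPM in each library for the 8 members called higher in ARG1+ cells, with grey lines joining the 2 fractions of an animal and bars for the mean and SD (n = 5). In all panels the 5 lines rise from ARG1- to ARG1+, and the groups overlap in the panels of Gsto1 and Abcc1.

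Over the 16 glutathione genes together, 6 were higher (37.5%, against 6.82% of all genes) and 0 lower, 14 had a positive log2 fold change (87.5%, against 49.6%), and the median was 0.31. At an unadjusted p below 0.05, none of the 16 was lower, and none was lower with DESeq2 or with the block, which called 13 higher, against 16.8% of all genes.

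The thioredoxin and peroxiredoxin genes had log2 fold changes of both signs, and none of the 7 passed the test without the block. At an unadjusted p below 0.05, 2 were higher and 1 was lower, and DESeq2 called 1 each way. The block called 3 higher (42.9%) and 2 lower (28.6%), against 16.8% and 18.3% of all genes. Txn1, thioredoxin itself (ENSMUSG00000028367, chr4:57943373-57956411, - strand), had 314, 355, 347, 418 and 317 CPM in the ARG1+ libraries and 297, 325, 268, 412 and 339.7 CPM in the ARG1- libraries, with broad overlap (log2 fold change 0.091 ± 0.113 (SE), FDR 0.631). Txnrd1, the selenoenzyme that reduces thioredoxin with NADPH (ENSMUSG00000020250, chr10:82833951-82897712, + strand), had 459, 475, 488, 535 and 412 CPM in the ARG1+ libraries and 516, 529.9, 486, 581 and 458 CPM in the ARG1- libraries. It was lower in ARG1+ cells in 4 of 5 animals, with overlap (log2 fold change -0.12 ± 0.0818 (SE), FDR 0.357, block FDR 0.0352). Srxn1, which repairs overoxidized peroxiredoxins and carries a full motif match in its promoter, was at 98.5 ± 9.88 against 99.4 ± 13.2 CPM (log2 fold change -0.016 ± 0.0949 (SE), FDR 0.936).

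The peroxiredoxins reduce peroxides through a cysteine. Prdx1, the cytosolic form (ENSMUSG00000028691, chr4:116685544-116700822, + strand), had 409.8, 429, 389, 521 and 383 CPM in the ARG1+ libraries and 310.5, 357, 291, 403 and 340.0 CPM in the ARG1- libraries. The groups overlapped between the ARG1- library of m235 and the lower ARG1+ libraries, and each animal had more in ARG1+ cells. Its log2 fold change of 0.32 ± 0.103 had an FDR of 0.0592, of 3.97e-04 with the block and of 0.0214 with DESeq2. Prdx6 (ENSMUSG00000026701, chr1:161240112-161251219, - strand), the form that uses glutathione and also acts on oxidized phospholipids, had 627, 556, 559.8, 815 and 548 CPM in the ARG1+ libraries and 436, 449, 311, 607 and 523 CPM in the ARG1- libraries. Levels varied widely between animals and the log2 fold change was 0.42 ± 0.164 (SE), FDR 0.111 (block FDR 0.00412). Prdx2 was at 104 ± 5.96 against 93.0 ± 10.1 CPM (log2 fold change 0.15 ± 0.0749 (SE), FDR 0.188, block FDR 0.0169).

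Prdx5 had a negative log2 fold change and was the most abundant member in CPM and per kilobase (ENSMUSG00000024953, chr19:6906697-6910106, - strand). This peroxiredoxin of mitochondria, peroxisomes and cytosol had 1035, 1273, 1297, 1236 and 1000.5 CPM in the ARG1+ libraries and 1298, 1480.4, 1320.4, 1707 and 1371 CPM in the ARG1- libraries. All ARG1- libraries were above all ARG1+ libraries, and m234 had nearly equal values in its 2 fractions. The log2 fold change was -0.30 ± 0.1000 (SE), FDR 0.0710. The FDR was 0.00492 with the block, 0.0264 with DESeq2 and 0.0343 on total counts. The gene shares 28.3% of its exon bases with Trmt112 on the opposite strand, and Trmt112 was at 30.9 ± 3.78 against 32.4 ± 1.73 CPM (log2 fold change -0.068 ± 0.0837 (SE), FDR 0.628).

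The pentose phosphate genes, which restore NADPH and recycle its sugars, had log2 fold changes close to 0. Of 4 tested, 0 were called, with 0 at an unadjusted p below 0.05 and 0 with DESeq2, and the block called 1 higher. G6pdx, the rate-limiting dehydrogenase (ENSMUSG00000031400, chrX:74409483-74429194, - strand), had 129, 116, 106, 135 and 123 CPM in the ARG1+ libraries and 104, 113, 94.4, 118 and 119 CPM in the ARG1- libraries. Its groups overlapped broadly, with ARG1+ above ARG1- in 5 of 5 animals (log2 fold change 0.15 ± 0.0796 (SE), FDR 0.231, block FDR 0.0245). Pgd, the next NADPH-making enzyme and the most abundant of the group (ENSMUSG00000028961, chr4:149149991-149166771, - strand), had 449, 452, 427, 498 and 414 CPM in the ARG1+ libraries and 418, 447, 387, 475 and 427 CPM in the ARG1- libraries (log2 fold change 0.056 ± 0.0696 (SE), FDR 0.632). Taldo1 and Tkt, of the branch that makes no NADPH, were at 244 ± 16.9 against 242 ± 11.9 CPM and at 338 ± 25.5 against 339 ± 16.2 CPM, with log2 fold changes of 0.010 ± 0.0608 (SE), FDR 0.933, and -0.0042 ± 0.0628 (SE), FDR 0.975. The median of the 4 was 0.033, and on total counts it was -0.0071. Me1, the cytosolic malic enzyme that also makes NADPH, stayed below the filter, with 31 counts in all ARG1+ and 32 in all ARG1- libraries.

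Among the other NRF2-linked enzymes, 2 of 6 tested were higher (33.3%, against 6.82% of all genes). Cat, the catalase of peroxisomes (ENSMUSG00000027187, chr2:103453849-103485160, - strand), had 62.0, 56.7, 54.2, 55.3 and 59.9 CPM in the ARG1+ libraries and 47.3, 44.7, 47.1, 46.0 and 45.2 CPM in the ARG1- libraries. Its replicates were close together and the groups were fully apart (1.25-fold, log2 fold change 0.32 ± 0.0505 (SE), FDR 0.00216). Akr1b8, an NADPH-dependent aldo-keto reductase (ENSMUSG00000029762, chr6:34354119-34368463, + strand), had 2.19, 1.10, 0.808, 1.52 and 1.34 CPM in the ARG1+ libraries and 0.599, 0.417, 0.118, 0.322 and 0.267 CPM in the ARG1- libraries. It had the largest log2 fold change of all members, 1.86 ± 0.344 (SE), FDR 0.00548, at the lowest level per length of the members tested: the ARG1+ libraries held 213 counts in all and the ARG1- libraries 52. It entered the test through its ARG1+ libraries alone, of which 4 were above 1 CPM and no ARG1- library was, so that a gene passing in this way had to be higher there. Its neighbour Akr1b10 was at 20.8 ± 2.36 against 17.6 ± 1.79 CPM (log2 fold change 0.24 ± 0.0953 (SE), FDR 0.113). The test without a filter on low counts gave Akr1b8 a log2 fold change of 1.88 (FDR 0.00243).

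Akr1a1, a broad aldehyde reductase and the most abundant of this group (ENSMUSG00000028692, chr4:116636510-116651680, - strand), had 629.7, 665, 579.9, 629 and 659 CPM in the ARG1+ libraries and 568, 583, 534, 581 and 623 CPM in the ARG1- libraries. The ARG1+ library was the higher one in 5 of 5 animals, and the groups overlapped (log2 fold change 0.13 ± 0.0602 (SE), FDR 0.171, block FDR 0.0166). Ephx1, microsomal epoxide hydrolase, was at 3.29 ± 1.46 against 1.90 ± 0.771 CPM (log2 fold change 0.85 ± 0.360 (SE), FDR 0.137, block FDR 0.00185). Osgin1 and Sod1 had log2 fold changes of -0.12 ± 0.130 (SE), FDR 0.582, and -0.076 ± 0.0744 (SE), FDR 0.530, and neither passed with the block. Nqo1, the quinone reductase often used as the readout of NRF2, was hardly detected, with 49 counts over the ARG1+ and 38 over the ARG1- libraries, and the difference was not detectable at this depth.

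Levels of different genes can be set side by side only per length, as mean CPM per kilobase of merged exons in ARG1+ and in ARG1- cells. Prdx5 was the highest at 807 and 992, followed in ARG1+ cells by Akr1a1 (445 and 407), Gpx1 (419 and 394), Txn1 (333 and 313), Prdx6 (249 and 186), Nfe2l2 (210.5 and 226), Pgd (202 and 194) and Taldo1 (179 and 177). Among the 8 higher members, Mgst1 (94.2 and 67.0), Gsto1 (82.7 and 67.1) and Gpx4 (79.8 and 65.5) were the most abundant, and Mgst2 (4.91 and 1.93) and Akr1b8 (1.02 and 0.254) were near the bottom. In glutathione synthesis, Gsr (74.6 and 55.9) and Slc7a11 (57.8 and 47.8) were well above Gclc (36.7 and 32.1), Gclm (8.67 and 6.72) and Gss (4.47 and 4.65).

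Beyond the members, 113 further genes of the same pathways were listed, of which 86 were tested and 15 were higher (17.4%) and 3 lower (3.49%), against 6.82% and 6.15% of all genes. These lists too were chosen with earlier results of these data known, and their shares describe the lists. With the block 30 were higher (34.9%) and 12 lower (14.0%), against 16.8% and 18.3%. The higher genes numbered 5 without animal m6, 7 without m2 and 9 without the ARG1- library of m6. The list of other NADPH and pentose phosphate genes held calls in both directions. Idh1, the cytosolic NADP-dependent isocitrate dehydrogenase, had 157, 124, 104, 125 and 146 CPM in the ARG1+ libraries and 73.8, 70.6, 56.4, 72.1 and 79.7 CPM in the ARG1- libraries, with no overlap (log2 fold change 0.89 ± 0.113 (SE), FDR 7.51e-04), and Mthfd2, a mitochondrial enzyme of folate metabolism, was lower at 26.4 ± 3.43 against 39.3 ± 3.49 CPM (log2 fold change -0.56 ± 0.0922 (SE), FDR 0.00285). Of 15 tested genes in that list, 3 were higher (20%) and 1 was lower (6.67%). The others higher were Idh2, the mitochondrial counterpart of Idh1 (log2 fold change 0.39 ± 0.0911 (SE), FDR 0.0180), and H6pd, which makes NADPH from hexose phosphates in the endoplasmic reticulum, at 107 ± 8.80 against 75.6 ± 8.78 CPM with no overlap (log2 fold change 0.50 ± 0.0839 (SE), FDR 0.00337). H6pd kept its call in 15 of 15 fits without 1 library or animal, Idh2 lost it without animal m6 or m236, and both are named after their values were seen. In the list of other glutathione genes, 3 of 21 were higher (14.3%) and 2 lower (9.52%). The share lower is close to the 6.15% of all genes. With the block, 6 were higher (28.6%) and 3 lower (14.3%), against 16.8% and 18.3% of all genes. Gsto2, another omega-class transferase, was at 1.15 ± 0.346 against 0.611 ± 0.217 CPM (log2 fold change 0.999 ± 0.289 (SE), FDR 0.0413, higher in 4 of 5 animals). It entered the test through ARG1+ libraries alone, with 4 of them and 0 ARG1- libraries above 1 CPM, so that it had to be higher there. Ggt5, which cleaves extracellular glutathione, and Ggct, which breaks down its gamma-glutamyl part, were lower, with log2 fold changes of -0.91 ± 0.213 (SE), FDR 0.0179, and -0.58 ± 0.160 (SE), FDR 0.0335.

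Of 22 other antioxidant and detoxification genes, 8 were higher (36.4%, against 6.82% of all genes) and none was lower. With the block, 17 were higher (77.3%, against 16.8% of all genes). None was lower at an unadjusted p below 0.05 or with DESeq2. The higher genes included Pon3, a lactonase (log2 fold change 0.69 ± 0.201 (SE), FDR 0.0421), Ptgr1, a prostaglandin and enone reductase (0.67 ± 0.173 (SE), FDR 0.0267), and the quinone reductase Nqo2 (0.57 ± 0.118 (SE), FDR 0.00948). Fits without 1 library or animal left Idh1 and Mthfd2 called in 15 of 15, and lost the call of Ggt5 without animal m2 or m236 and of Nqo2 without m6. Ptgr1 lost its call in 6 fits, which lacked the m2 or m235 library of ARG1+ cells, the m6 library of ARG1- cells, or animal m2, m6 or m236 (FDR up to 0.107). The call was lost in 11 of 15 fits each for Gsto2 (FDR up to 0.172), Pon3 (up to 0.175) and Ggct (up to 0.121), and all 3 kept it without the ARG1- library of m234 or animal m234.

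Hmox1, the heme oxygenase, had 599, 810.4, 629, 995 and 885 CPM in the ARG1+ libraries and 404, 607, 572, 636 and 611 CPM in the ARG1- libraries. It was higher in each animal, and its log2 fold change of 0.47 ± 0.155 had an FDR of 0.0677, and of 5.32e-04 with the block. In the list of other thioredoxin-system genes, 1 of 18 was higher (5.56%, close to the 6.82% of all genes). None was lower (1 at an unadjusted p below 0.05, 0 with DESeq2), against 6.15% of all genes. None of 10 tested NRF2 partners and regulators passed, 8 had a negative log2 fold change, and 3 were lower at an unadjusted p below 0.05, 2 with DESeq2 and 5 with the block. Of 8 genes of NADPH oxidase and nitric oxide synthase none passed, with 1 higher and 3 lower at an unadjusted p below 0.05, 0 and 1 with DESeq2, and 1 and 4 with the block.

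The gate can hold several kinds of cells, and some marker lists of other cell types moved with the reporter. For comparison, 6.82% of all genes were higher and 6.15% lower, and with the block 16.8% and 18.3%. Markers of dendritic cells were lower in ARG1+ cells for 5 of 7 tested genes, of which Flt3, Zbtb46 and Dpp4 entered the test through ARG1- libraries alone and had to be lower, with summed levels of 14.0 to 30.1 CPM against 29.7 to 62.3 CPM, and those of monocytes for 4 of 7 (2035 to 8012 against 2479 to 7398 CPM), with 1 higher and 6 lower with the block. In the list for B and plasma cells 3 of 4 were lower (5.85 to 17.7 against 32.3 to 68.7 CPM), while Cd79a, Ms4a1 and Pax5 were below the filter. Of the border-associated macrophage list, 3 of 4 tested were higher (1512 to 2362 against 809 to 1400 CPM), and Cd163, Lyve1, Cbr2 and Folr2 were below the filter. None of 9 microglial markers passed, and all 9 had negative log2 fold changes (5 lower at an unadjusted p below 0.05, 2 with DESeq2, 7 with the block). Among 3 tested neutrophil markers S100a9 was lower, having entered the test through ARG1- libraries alone, and S100a8 and Mmp8 had positive log2 fold changes (0.23 ± 0.244 (SE), FDR 0.560, block FDR 0.0154, and 0.84 ± 0.303 (SE), FDR 0.0878, block FDR 4.23e-05). Of 5 endothelial markers 2 were lower (3 with the block), and of 7 astrocyte markers 2 were higher, with 4 negative log2 fold changes and 1 gene lower at an unadjusted p below 0.05, with DESeq2 and with the block. No T and NK cell marker and no neuron marker reached the filter, and none of 4 erythroid, 8 oligodendrocyte and 5 proliferation markers passed the test. With the block, 2 erythroid markers were lower, 1 oligodendrocyte marker was higher and 2 were lower, and 1 proliferation marker was higher and 2 were lower. The part of these cells in the differences of the glutathione genes was not tested.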

How the data were processed

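Total RNA of sorted cells was sequenced as 50-base single reads. Per the labels and the study's methods, the authors aligned reads to GRCm38 with STAR (version 2.7.10b in the submitters' processing notes), counted them with summarizeOverlaps in Union mode against basic Ensembl 100 transcripts, summed the transcript counts to genes and deposited raw counts. The sources used here do not say if strand was used in counting. Totals were 8396863 to 35455643 counts, and 1 CPM was 8.50 to 36.0 counts. Counting limits Akr1b8, Mgst2, Me1 and Nqo1.

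From the counts, genes with CPM above 1 in at least 3 of 10 libraries were tested in edgeR 4.0.16 (R 4.3.3) with TMM factors and the quasi-likelihood test, Benjamini-Hochberg adjusted over all 13740 genes. The SE is the log2 fold change over the root of F. The study itself used limma-trend with this filter, and also asked for log2 fold changes beyond 1 in size. The counts were refitted with DESeq2 1.42.0 and limma-trend (limma 3.58.1), with other scalings and filters, with a term for the animal (replicate block), and after leaving out single libraries or animals. Scripts were tested on simulated counts in which 200 genes were changed. There edgeR made 10 false calls without and 14 with the block, limma-trend 11 and DESeq2 44.

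The pairing comes from the labels: both libraries of a number are from the same animal. Deviations from the group means, across genes, correlated at 0.361 to 0.664 within an animal and at -0.367 to 0.0675 between animals. No library pair of a group agreed within sampling noise.

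The members and lists were chosen with earlier results of these data known. Members that passed, the regulators, Gss, Gsr and the most abundant of each role are given in every library, and other members shorter. Some members were given per library in addition (Gclm, Txn1, Txnrd1, Prdx1, Prdx6, G6pdx), chosen after their values were seen. Of the wider lists, the 5 largest log2 fold changes in each direction among the calls and Hmox1 are named. Exon lengths and shared 50-base stretches come from GENCODE vM21 basic exons, and promoters from RefSeq (GRCm38.p6). Coordinates are those of the deposited table.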

Additional observations from a re-analysis of the deposited data

Results flagged for a closer look

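Each group of 5 libraries of each member was searched for a library far from the others (Dixon's ratio above 0.71). Of 74 groups, 3 passed, and chance flags about 1 in 20. Gstp1 in the ARG1- library of m234 was at 21.4 CPM (ratio 0.725), below the other ARG1- libraries. Glrx in m235 was at 228.5 CPM in ARG1+ cells (ratio 0.722) and at 205 CPM in ARG1- cells (ratio 0.736), above the other libraries of each fraction.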

How the results depend on the processing

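Against 8 members higher, 0 lower and 2 past both limits, the fits without 1 library or animal gave 4 to 9, 0 to 0 and 2 to 2. The lowest count, 4, came without both libraries of m2 or of m6, which leaves 4 animals. The wider lists had 5 to 15 genes higher (5 without animal m6, 7 without m2 and 9 without the ARG1- library of m6) and 2 to 4 lower. The replicate block gave 21 members higher and 2 lower, and 30 wider genes higher and 12 lower, and over all genes 2307 higher and 2519 lower against 937 and 845. Among members it changed no other call than those given beside the genes. DESeq2 and total counts each gave 1 member lower and 5 wider genes lower. With CPM above 1 in at least 5 libraries, 1 member passed both limits, since Akr1b8 was then not tested. Over all genes, DESeq2 called 1276 higher and 1307 lower, and total counts 701 and 1282, with the median log2 fold change at -0.043. Total counts ended the calls of Gsto1 (FDR 0.0656) and Abcc1 (FDR 0.0578). The cause was not tested.

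Members near 0 changed sign. Gstp1 was at 0.017 with limma-trend, 0.010 without a filter, 1.64e-04 with the stricter filter and 0.0023 with the block, Taldo1 at -0.030 on total counts and Tkt at 0.0095 without a filter. Without 1 library or animal, log2 fold changes ranged from -0.067 to 0.037 for Gstp1, -0.012 to 0.050 for Taldo1, -0.043 to 0.021 for Tkt and -0.072 to 0.042 for Srxn1. The Arg1 difference stayed at 5.35 to 5.64. Depth limits Nqo1 and Me1, which were not tested, and Mgst2 and Akr1b8, which rest on few counts.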
